A study of Mus musculus with 18 samples.

Results

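Collagen chain genes encode the alpha chains that wind into the collagen molecules of the extracellular matrix. They were taken here as all genes whose symbol has the form of a collagen chain (Col, a type number, a, a chain number) and that reached at least 1 FPKM in 3 or more of 18 mouse heart libraries. FPKM is the number of sequenced fragments scaled to transcript length and to the mapped fragments of the library, so levels of different genes can be set side by side. Of 44 such symbols among 18414 genes in the deposited tables, 32 met the minimum, as did 13116 genes of any kind. By class, 10 were fibrillar, 8 belonged to basement membranes, 5 were FACITs (collagens that sit on the surface of fibrils) and 9 were of other kinds. The members were chosen by their level, so their levels are given as a description. Col9a2 and Col13a1 lay just inside the minimum, with 3 libraries at 1 FPKM or more each, and Col7a1 and Col26a1 just outside it, with 2 each.

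The series measured messenger RNA of hearts of mice with myocardial infarction, in 6 groups of 3 libraries. PBS_D3 and aNMP-2a_D3 hearts had an injection of PBS or of aNMP-2a on day 3 after infarction and were collected on day 4. The pair aNMP-2a+PBS_D7 and aNMP-2a+2b_D7 had aNMP-2a on day 3 in both groups, then PBS or aNMP-2b on day 7, and collection on day 8. For day 15, all hearts had aNMP-2a on day 3 and aNMP-2b on day 7; on day 14 those of aNMP-2a+2b+PBS_D14 were given PBS, and those of aNMP-2a+2b+2c_D14 were given aNMP-2c. Every mouse thus carried an infarct, and from day 7 the PBS groups had received the earlier agents too. The labels give neither strain nor age, do not say which zone of the heart was sampled or whether each replicate was its own animal, so the p-values measure the spread between these libraries.

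After an infarct, dying heart muscle is replaced by a scar whose strength comes from fibrils of type I and type III collagen, laid down mainly by activated fibroblasts. Type V and type XI chains help to start these fibrils and set their width, and FACITs such as type XII and type XIV collagen decorate them. Type IV collagen forms the sheet-like network of basement membranes around muscle cells and vessels, and type VI collagen forms beaded filaments close to cells.

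Some collagen genes lie next to each other. Col4a1 and Col4a2, whose products assemble in the same type IV molecules, lie head to head on chromosome 8 and are known to share a promoter. In RefSeq on GRCm38.p6 their promoter windows run from 250 bases before to 50 bases after the start used for each. They are chr8:11312777-11313076 on the minus strand for Col4a1 and chr8:11312555-11312854 on the plus strand for Col4a2. For Col4a1 the start used lies inside the gene, whose outer end is 11312889, so the shared stretch holds for these windows only. These windows are shown because the ratio of the 2 genes stayed between 1.36 and 1.73 in all libraries below. Whether the shared promoter has a part in that ratio was not tested. Capitals mark the 78 bases the windows share (11312777 to 11312854), read from opposite strands.
Col4a1: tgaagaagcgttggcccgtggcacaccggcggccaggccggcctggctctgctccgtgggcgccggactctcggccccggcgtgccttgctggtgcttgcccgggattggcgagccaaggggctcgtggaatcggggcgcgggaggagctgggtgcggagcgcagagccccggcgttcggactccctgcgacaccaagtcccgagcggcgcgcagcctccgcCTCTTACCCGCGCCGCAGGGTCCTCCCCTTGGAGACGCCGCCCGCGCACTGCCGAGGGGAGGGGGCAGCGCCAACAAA
Col4a2: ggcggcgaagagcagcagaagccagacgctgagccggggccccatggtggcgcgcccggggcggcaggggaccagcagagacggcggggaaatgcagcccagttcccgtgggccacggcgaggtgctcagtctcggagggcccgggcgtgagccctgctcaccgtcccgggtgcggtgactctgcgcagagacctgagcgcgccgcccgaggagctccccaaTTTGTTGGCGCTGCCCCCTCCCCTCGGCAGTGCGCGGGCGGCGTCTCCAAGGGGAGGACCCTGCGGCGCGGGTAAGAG
The windows of Col1a2 (chr6:4505368-4505667, plus strand) and Col3a1 (chr1:45311288-45311587, plus strand) belong to 2 of the most abundant fibrillar genes. Capitals mark the letters GGGCGG, a known Sp1 motif, the CCAAT box and the TATA box letters TATAAA, found on either strand, and no match in these 2 windows overlaps another.
Col1a2: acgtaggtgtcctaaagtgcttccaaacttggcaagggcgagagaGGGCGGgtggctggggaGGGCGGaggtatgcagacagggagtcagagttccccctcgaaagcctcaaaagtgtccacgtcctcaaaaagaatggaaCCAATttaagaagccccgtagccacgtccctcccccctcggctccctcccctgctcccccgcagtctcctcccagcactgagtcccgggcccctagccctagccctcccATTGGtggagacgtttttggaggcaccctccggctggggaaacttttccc
Col3a1: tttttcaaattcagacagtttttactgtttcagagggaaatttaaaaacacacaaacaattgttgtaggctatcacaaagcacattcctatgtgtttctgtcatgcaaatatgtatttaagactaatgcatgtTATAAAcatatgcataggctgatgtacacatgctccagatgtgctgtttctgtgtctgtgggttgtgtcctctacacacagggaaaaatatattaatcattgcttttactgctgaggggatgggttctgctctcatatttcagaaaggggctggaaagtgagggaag
RefSeq gave 29 windows for 27 of the 32 members, and Col1a1, Col5a2, Col4a3, Col12a1 and Col14a1 were without one. GGGCGG stood in 20 of the 29 windows (69.0%) and in 35.7% of all 32851 windows of that length. CCAAT stood in 8 (27.6%, against 37.4% of all windows), and TATAAA in 3 (10.3%, against 13.6%). Further neighbours without a coding gene between them were Col3a1 and Col5a2, 24624 bases apart, Col6a2 and Col6a1, 85161 bases apart, Col6a6 and Col6a5, 27823 bases apart, and Col4a6 and Col4a5, 1274 bases apart. By the outer ends of the genes, Col4a1 and Col4a2 overlap by 85 bases and Col4a3 and Col4a4 by 114 bases. The Col4a1 window above was counted from a start inside that end. Whether the counting used strand is not given in the sources used here, so reads in these short overlaps cannot be assigned.

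Library sums lay between 704356 and 814452 FPKM, and between 12181 and 12821 genes reached 1 FPKM in a library. Heart muscle was present in all libraries, with summed levels of 10 cardiomyocyte markers between 33269 and 75444 FPKM. Atrial muscle was not evenly represented: Myl7, the atrial myosin light chain, was at 50 FPKM or more in 8 of 18 libraries and in none of PBS_D3. From day 8 on, each group held 1 library with far more collagen than the other 2. These were replicate 1 of aNMP-2a+PBS_D7, replicate 2 of aNMP-2a+2b_D7, replicate 1 of aNMP-2a+2b+PBS_D14 and replicate 1 of aNMP-2a+2b+2c_D14, and some of the leading values of each later comparison are given with and without them.

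Together the 32 genes took from 0.0499% to 0.855% of all FPKM in a library. Their summed level was 3321 to 4381 FPKM in PBS_D3 and 2384 to 3599 FPKM in aNMP-2a_D3. On day 8 it was 6244, 2061 and 2070.4 FPKM in replicates 1 to 3 of aNMP-2a+PBS_D7 and 2664, 4836 and 2159 FPKM in group aNMP-2a+2b_D7. On day 15 it was 2402, 1118 and 873 FPKM in group aNMP-2a+2b+PBS_D14 and 5799, 393 and 733 FPKM in group aNMP-2a+2b+2c_D14. The group aNMP-2a+2b+2c_D14 thus held both the lowest sum of all and a sum above that of every day 4 library. Fibrillar genes held between 35.7% and 79.2% of the collagen FPKM, basement membrane genes between 7.65% and 38.0%, FACITs between 1.67% and 3.84% and the other collagens between 8.40% and 22.5%. In bulk tissue, fewer cells of a type and less RNA per cell cannot be told apart.

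**Figure D1:**
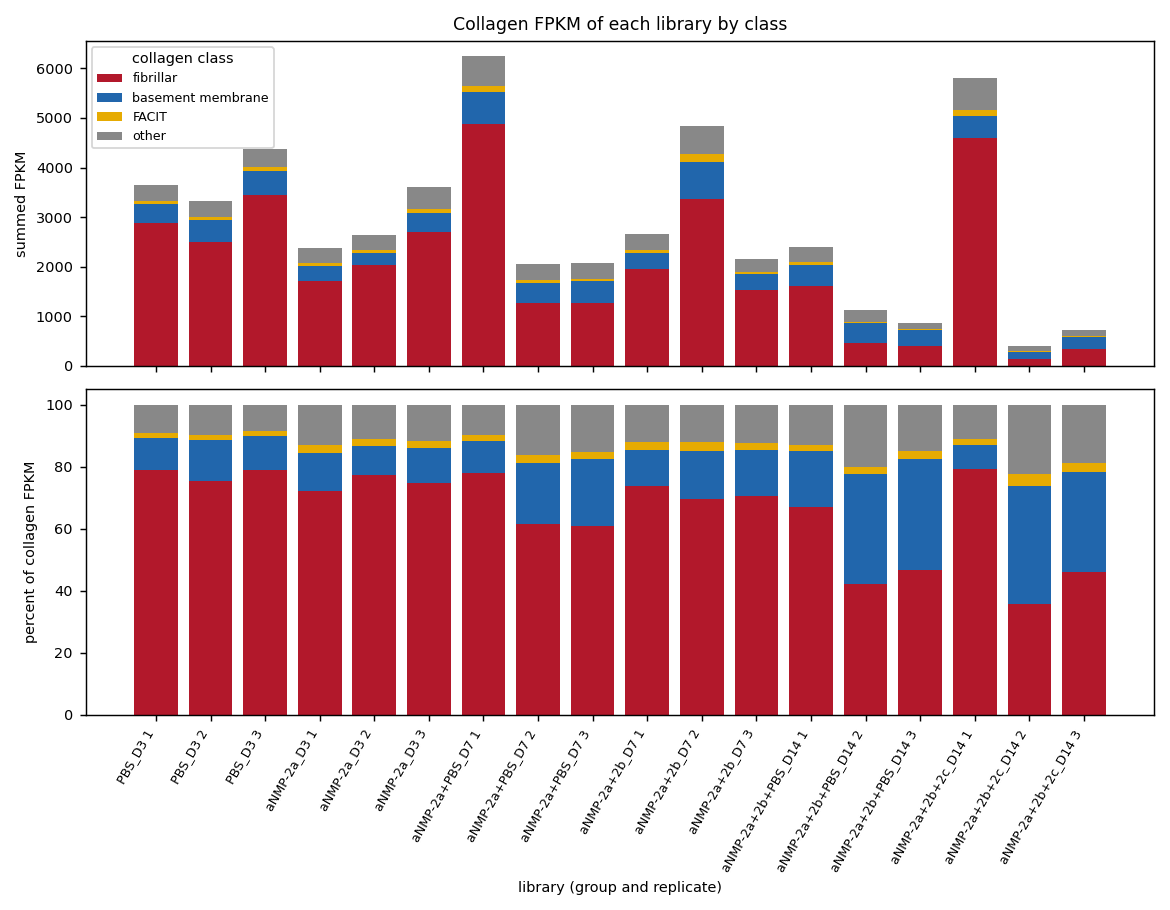
Summed FPKM of the 32 collagen chain genes in each of the 18 libraries by class (upper bars) and the share of each class in the collagen FPKM in percent (lower bars). The sum runs from 393 to 6244 FPKM, and the fibrillar share is lowest, at 35.7%, in replicate 2 of aNMP-2a+2b+2c_D14.

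Fibrillar collagen was led by Col3a1, the single chain of type III collagen, and by Col1a1 and Col1a2, the chains of type I. Col3a1 was at 1459.7, 1273 and 1681 FPKM in PBS_D3 and at 848, 1013 and 1342 FPKM in aNMP-2a_D3. It was at 2022, 670.4 and 618 FPKM in aNMP-2a+PBS_D7 and at 878, 1529 and 748 FPKM in group aNMP-2a+2b_D7. On day 15 it was at 785, 231 and 185 FPKM in group aNMP-2a+2b+PBS_D14 and at 2022, 36.7 and 161 FPKM in group aNMP-2a+2b+2c_D14. PBS_D3 and aNMP-2a_D3 overlapped slightly, the groups of later days widely, and the lowest value of each day 15 group lay under every value of day 4. Ranked by FPKM within a library, Col3a1 stood between 49th and 2382nd.

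Col1a1 (gene 12842, chr11:94936224-94953042 in GRCm38.p6) was at 624, 522 and 755 FPKM in PBS_D3 and at 338, 412 and 528 FPKM in aNMP-2a_D3. It was at 1264, 216 and 240.1 FPKM in aNMP-2a+PBS_D7 and at 438, 640.3 and 299 FPKM in group aNMP-2a+2b_D7. It was at 322, 76.0 and 74.0 FPKM in group aNMP-2a+2b+PBS_D14 and at 985, 27.6 and 55.2 FPKM in group aNMP-2a+2b+2c_D14. In each group the highest library was the same as for Col3a1, and so was the lowest, except in aNMP-2a+PBS_D7. The highest Col1a1 value was 45.8 times the lowest. Col1a2 on day 4 was at 604, 526 and 786 FPKM in PBS_D3 and at 413, 486 and 635 FPKM in aNMP-2a_D3. On day 8, Col1a2 was at 1269.7, 267 and 299 FPKM with PBS and at 515, 897 and 372 FPKM with aNMP-2b, and on day 15 at 389.8, 101 and 102 FPKM with PBS and at 1284, 50.9 and 83.2 FPKM with aNMP-2c. Col1a2 thus had the same high library as Col1a1 in each group of days 8 and 15, and its day 4 groups overlapped.

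The minor fibrillar chains were lower, and values are again those of replicates 1 to 3. For Col5a1, PBS_D3 gave 74.4, 70.0 and 91.8 FPKM and aNMP-2a_D3 44.8, 51.5 and 79.8 FPKM. The day 8 values of Col5a1 were 129.6, 39.1 and 37.1 FPKM with PBS and 50.7, 91.6 and 38.6 FPKM with aNMP-2b, and those of day 15 were 41.2, 21.8 and 13.0 FPKM with PBS and 117, 9.55 and 14.5 FPKM with aNMP-2c. Its day 4 groups overlapped through replicate 3 of aNMP-2a_D3. Col5a2 on day 4 was at 77.6, 76.2 and 91.8 FPKM in PBS_D3 and at 53.6, 53.0 and 79.9 FPKM in aNMP-2a_D3. On day 8, Col5a2 was at 130.1, 41.7 and 36.4 FPKM with PBS and at 55.5, 170.2 and 43.1 FPKM with aNMP-2b, and on day 15 at 42.3, 18.4 and 17.6 FPKM with PBS and at 126, 8.10 and 12.0 FPKM with aNMP-2c. The day 4 groups of Col5a2 overlapped through the same library. Col5a3, the third type V chain, was at 37.4, 31.2 and 35.8 FPKM in PBS_D3 and at 13.6, 16.6 and 16.7 FPKM in aNMP-2a_D3, with no overlap. It was at 45.1, 27.8 and 23.4 FPKM in aNMP-2a+PBS_D7, at 16.8, 23.4 and 18.4 FPKM in group aNMP-2a+2b_D7, at 22.3, 18.7 and 10.3 FPKM in group aNMP-2a+2b+PBS_D14 and at 42.9, 3.60 and 8.22 FPKM in group aNMP-2a+2b+2c_D14. For Col11a1, PBS_D3 gave 0.52, 0.68 and 2.13 FPKM and aNMP-2a_D3 0.22, 0.45 and 0.90 FPKM. The day 8 values of Col11a1 were 5.08, 0.12 and 0.42 FPKM with PBS and 1.41, 5.29 and 0.11 FPKM with aNMP-2b, and those of day 15 were 0.54, 0.04 and 0.11 FPKM with PBS and 2.03, 0.07 and 0.05 FPKM with aNMP-2c. Col11a1, a chain better known from cartilage, reached 1 FPKM in 5 of the 18 libraries. Of the other fibrillar genes, Col27a1 stood between 1.30 and 8.03 FPKM, Col11a2 between 0.86 and 3.28 FPKM and Col24a1 between 0 and 9.19 FPKM.

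**Figure D2:**
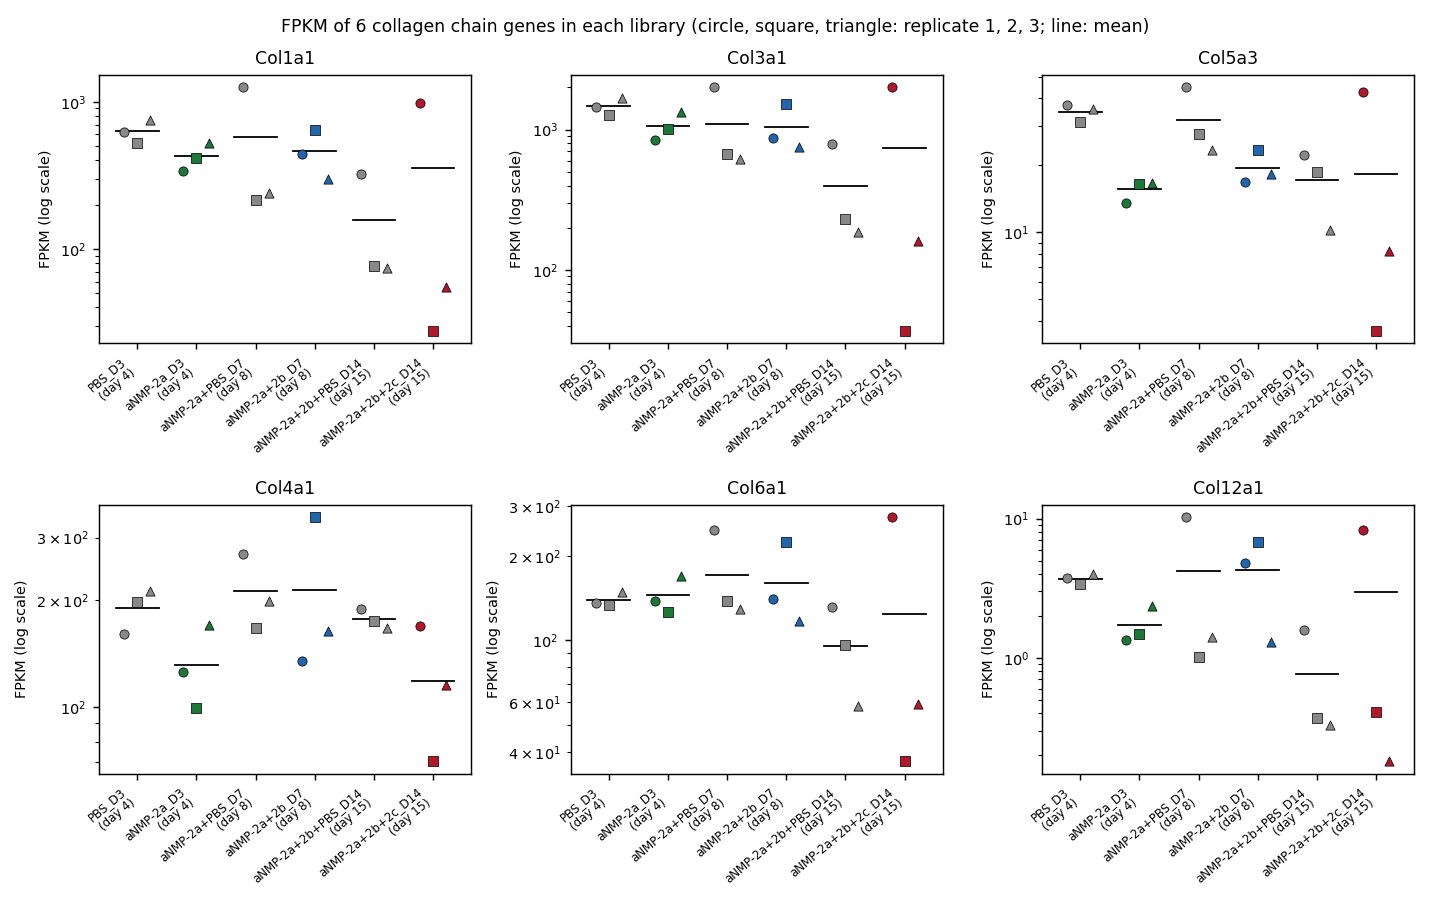
FPKM (log axis) of 6 collagen chain genes in each library; symbols stand for replicates 1 to 3 and lines for group means. Col1a1, Col3a1, Col5a3 and Col12a1 spread over more than 10-fold within the aNMP-2a+2b+2c_D14 group, while Col4a1 stays between 70.3 and 343 FPKM in all 18 libraries.

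Over all 18 libraries, Col4a1, Col4a2, Col15a1 and Col18a1 had a smaller ratio of highest to lowest value than Col1a1 and Col3a1. Within PBS_D3, aNMP-2a_D3 and aNMP-2a+2b_D7, the SD of log2 Col4a1 was not smaller than that of Col3a1, as given below. Col4a1 was at 161, 198 and 212 FPKM in PBS_D3, at 125, 99.5 and 170.0 FPKM in aNMP-2a_D3, at 269, 167 and 199 FPKM in aNMP-2a+PBS_D7 and at 135, 343 and 164 FPKM in group aNMP-2a+2b_D7. On day 15 it was at 188, 175 and 167 FPKM in group aNMP-2a+2b+PBS_D14, where Col1a1 ran from 74.0 to 322 FPKM, and at 169, 70.3 and 115 FPKM in group aNMP-2a+2b+2c_D14. The day 4 groups of Col4a1 overlapped, as did its later pairs. For Col4a2, PBS_D3 gave 114, 134 and 143 FPKM and aNMP-2a_D3 84.0, 60.6 and 101 FPKM. The day 8 values of Col4a2 were 184, 120.5 and 138 FPKM with PBS and 89.1, 235 and 94.6 FPKM with aNMP-2b, and those of day 15 were 136, 129 and 106 FPKM with PBS and 117, 47.7 and 72.0 FPKM with aNMP-2c. All 3 PBS_D3 values of Col4a2 lay above those of aNMP-2a_D3. Col15a1 on day 4 was at 72.3, 74.5 and 90.2 FPKM in PBS_D3 and at 56.6, 58.8 and 93.0 FPKM in aNMP-2a_D3. On day 8, Col15a1 was at 131, 80.7 and 84.6 FPKM with PBS and at 56.1, 114 and 39.5 FPKM with aNMP-2b, and on day 15 at 77.0, 69.5 and 22.6 FPKM with PBS and at 105, 15.8 and 34.6 FPKM with aNMP-2c. Its product links basement membranes to the surrounding matrix, and its groups overlapped on each day. For Col18a1, PBS_D3 gave 19.1, 18.8 and 21.2 FPKM and aNMP-2a_D3 13.8, 10.9 and 16.0 FPKM. The day 8 values of Col18a1 were 31.5, 19.0 and 12.7 FPKM with PBS and 15.8, 33.1 and 11.8 FPKM with aNMP-2b, and those of day 15 were 13.8, 9.34 and 6.67 FPKM with PBS and 26.5, 4.33 and 5.48 FPKM with aNMP-2c. Col18a1, whose product carries the fragment endostatin, was higher in every PBS_D3 library than in any of aNMP-2a_D3, and overlapped later. From lowest to highest, Col15a1 spanned 8.30-fold and Col18a1 7.64-fold, against 4.87-fold for Col4a1. The chains Col4a5 (7.51 to 20.8 FPKM), Col4a4 (1.27 to 3.58 FPKM), Col4a6 (0.41 to 3.57 FPKM) and Col4a3 (0.34 to 1.52 FPKM) were the lesser type IV genes.

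Among the FACITs, Col14a1 had the highest median. For Col14a1, PBS_D3 gave 37.3, 32.1 and 42.9 FPKM and aNMP-2a_D3 39.1, 41.8 and 50.9 FPKM. The day 8 values of Col14a1 were 58.0, 33.1 and 27.4 FPKM with PBS and 36.7, 68.5 and 24.4 FPKM with aNMP-2b, and those of day 15 were 29.4, 14.7 and 12.0 FPKM with PBS and 67.4, 8.74 and 12.7 FPKM with aNMP-2c. Groups overlapped on each day. Col12a1 was at 3.73, 3.40 and 3.98 FPKM in PBS_D3 and at 1.35, 1.49 and 2.36 FPKM in aNMP-2a_D3, with no overlap. Its later values were 10.3, 1.02 and 1.41 FPKM in aNMP-2a+PBS_D7, 4.80, 6.80 and 1.30 FPKM in group aNMP-2a+2b_D7, 1.59, 0.37 and 0.33 FPKM in group aNMP-2a+2b+PBS_D14 and 8.28, 0.41 and 0.18 FPKM in group aNMP-2a+2b+2c_D14. Its high libraries were those of Col1a1 and Col3a1. Col16a1 ranged from 4.46 to 57.3 FPKM. Col20a1, at 1.29 to 2.23 FPKM, had the smallest ratio of highest to lowest value of the 32 (1.73), and Col9a2 lay under 1 FPKM except in 3 libraries, with 9.43 FPKM in replicate 2 of aNMP-2a+2b_D7.

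Of the other collagens, the type VI chains dominated. Col6a1 on day 4 was at 136, 133 and 149 FPKM in PBS_D3 and at 138, 127 and 169 FPKM in aNMP-2a_D3. On day 8, Col6a1 was at 246, 138 and 129.7 FPKM with PBS and at 141, 223 and 117 FPKM with aNMP-2b, and on day 15 at 132, 95.9 and 58.3 FPKM with PBS and at 275, 37.0 and 59.0 FPKM with aNMP-2c. Its groups overlapped on each day, and Col6a2 ran from 35.3 to 260.5 FPKM. For Col6a3, PBS_D3 gave 37.3, 35.8 and 41.6 FPKM and aNMP-2a_D3 24.9, 25.9 and 35.8 FPKM. The day 8 values of Col6a3 were 65.8, 26.6 and 29.1 FPKM with PBS and 25.97, 35.6 and 21.3 FPKM with aNMP-2b, and those of day 15 were 24.4, 18.2 and 10.6 FPKM with PBS and 56.0, 7.07 and 9.72 FPKM with aNMP-2c. All PBS_D3 values of Col6a3 lay just above those of aNMP-2a_D3, and the later groups overlapped. Col6a5 lay at 0.02 to 0.06 FPKM in PBS_D3, at 0.28 to 0.59 FPKM in aNMP-2a_D3 and at 0.93 to 2.76 FPKM in the 6 libraries of day 8. On day 15 it was at 1.98, 0.32 and 0.82 FPKM with PBS and at 4.86, 0.01 and 0.03 FPKM with aNMP-2c. Col8a1 on day 4 was at 9.48, 16.0 and 20.2 FPKM in PBS_D3 and at 8.84, 8.69 and 26.4 FPKM in aNMP-2a_D3. On day 8, Col8a1 was at 28.7, 9.24 and 8.54 FPKM with PBS and at 7.98, 82.8 and 5.29 FPKM with aNMP-2b, and on day 15 at 11.2, 6.19 and 3.41 FPKM with PBS and at 22.4, 4.90 and 4.68 FPKM with aNMP-2c. Col8a1 is a network-forming chain of vessel walls, and its highest value stood in replicate 2 of aNMP-2a+2b_D7. Col8a2 stood at 28.0 FPKM in that same library, and Col6a6, Col13a1 and Col23a1 reached at most 3.81 FPKM.

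**Figure D3:**
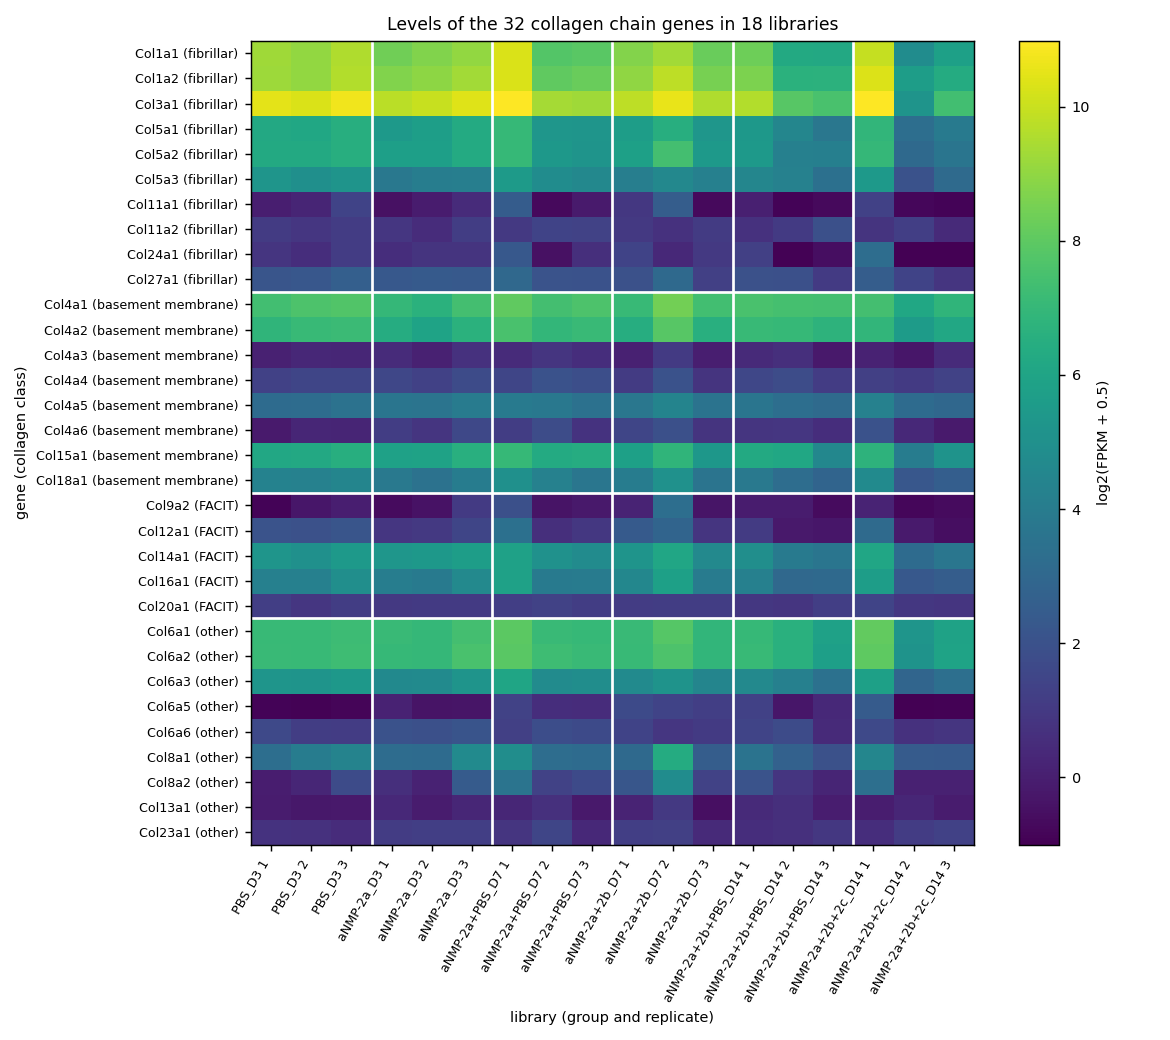
Levels of the 32 genes as log2(FPKM + 0.5), 1 gene a line by class and 1 library a column by group. Replicate 1 of aNMP-2a+PBS_D7, replicate 2 of aNMP-2a+2b_D7 and replicate 1 of aNMP-2a+2b+2c_D14 are bright in most fibrillar genes, and replicates 2 and 3 of both day 15 groups are dark, while the Col4a1 and Col4a2 lines vary least among the abundant genes.

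The first comparison asks what a single aNMP-2a injection on day 3 changed within 1 day. Col5a3 and Col12a1 fell. Col5a3 (chr9:20770050-20815117, GRCm38.p6) went from 34.8 ± 3.23 to 15.6 ± 1.74 FPKM (SD, n = 3 each), a log2 fold change of −1.13 (SE 0.11, limma adjusted p = 0.00229). Col12a1 (chr9:79598987-79721141) went from 3.70 ± 0.29 to 1.73 ± 0.55 FPKM, a log2 fold change of −0.94 (SE 0.17, limma adjusted p = 0.0408); its call was lost in 5 of 6 fits that left out 1 library, with log2 fold changes of −1.13 to −0.81. Fold changes are on the scale log2(FPKM + 0.5), which understates those of low genes such as Col12a1, and a gene counts as called where its p, adjusted by Benjamini-Hochberg over all genes tested, is under 0.05.

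Of the 32 genes, 27 passed the filter on low values and were tested; 0 were called higher, 2 lower and 25 did not pass. Over all genes tested, 1.41% were called higher, 0.432% lower and 1.84% in either direction. At an unadjusted p under 0.05 there were 13 collagen genes, 4 higher and 9 lower, against 10.5% higher and 6.28% lower of all genes (16.8% together); 1 of the 4 is Col4a6, which had to differ as given below. Of the 9 fibrillar genes tested, 8 had values from −1.13 to −0.13 and Col27a1 was at 0.00 to 2 decimals, with a median log2 fold change of −0.42, beside 0.03 over all genes. The abundant ones did not pass: Col1a1 had −0.58 (95% interval −1.02 to −0.14, adjusted p = 0.198) and Col3a1 −0.48 (−0.89 to −0.07, adjusted p = 0.234). Not tested were Col11a1, Col4a3, Col9a2, Col6a5 and Col13a1.

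Of the 7 basement membrane genes tested, 0 passed. The pair Col4a1 and Col4a2 had values of −0.55 (adjusted p = 0.233) and −0.70 (adjusted p = 0.128), and Col18a1 −0.54 (adjusted p = 0.0977). Col15a1 had −0.22 (adjusted p = 0.613), Col4a4 0.09 (adjusted p = 0.768), and the X-linked Col4a5 0.44 (adjusted p = 0.147) and Col4a6 1.07 (adjusted p = 0.0551). Col4a6 was at 0.42, 0.73 and 0.70 FPKM in PBS_D3 and at 1.78, 1.31 and 2.54 FPKM in aNMP-2a_D3, so it passed the filter only through the group where it was high and had to differ. Among the other collagens Col6a6 (0.69, adjusted p = 0.0653) and Col23a1 (0.55, adjusted p = 0.0782) were higher in every treated library than in any PBS library, without passing. Groups did not overlap for 4 collagen genes higher and 5 lower after aNMP-2a, against 14.4% and 8.5% of all genes; the 4 include Col4a6, and 4 of 27 is near the share of all genes.

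Markers of other tissues moved with this comparison. Of the 9 mesothelial markers tested, 5 were called higher, among them Upk3b (3.18), Msln (2.81) and Lrrn4 (2.35), and the summed list of 10 was at 14.7 to 35.7 FPKM in PBS_D3 and 98.6 to 126 FPKM in aNMP-2a_D3. Of 5 red cell markers tested, 3 were higher (Alas2 1.07, Hbb-bt 1.02, Hbb-bs 0.85), with sums of 6483 to 8064 and 11756 to 16815 FPKM. Chad, from the 8 valve and cartilage markers, was higher (2.49), with Acan, Matn1, Hapln1 and Snorc under 1 FPKM in all libraries. The 7 atrial markers summed to 109 to 488 FPKM in PBS_D3 and to 5668, 213 and 15548 FPKM in replicates 1 to 3 of aNMP-2a_D3. Of 4 atrial and 3 adipocyte markers tested, 0 passed. Adipoq missed the filter and was not tested, with 0.07 FPKM or less in PBS_D3 and 0.36 to 4.86 FPKM in aNMP-2a_D3. Kdr, a VEGF receptor of endothelium, fell (−0.69, adjusted p = 0.0111), 1 of 10 endothelial markers. Replicate 2 of aNMP-2a_D3, the library of that group with little Myl7, had 16.6 FPKM of Col5a3 and 1.49 FPKM of Col12a1. The part of these tissues in the collagen values was not tested.

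The fibroblast and scar markers did not move as one. Acta2, the smooth muscle actin of contractile myofibroblasts and vessel walls, fell (−1.07, limma adjusted p = 0.00104), and the other 7 of 8 myofibroblast markers did not pass, with summed levels of 552 to 842 FPKM in PBS_D3 and 385 to 1067 FPKM in aNMP-2a_D3. Scara5, a marker of resting fibroblasts, rose (0.61, adjusted p = 0.00996), the 1 call among 10 fibroblast markers. Of the 10, 9 were positive (median 0.32, beside 0.03 over all genes), with sums of 2024 to 2261 and 2487 to 2905 FPKM, without overlap. Of the 10 mural cell, 10 cardiomyocyte and 8 macrophage markers tested, 0 passed. All 10 mural markers were negative (median −0.24), with sums of 417 to 499.9 FPKM in PBS_D3 and 379.6 to 394 FPKM in aNMP-2a_D3, and 7 of 8 macrophage markers were positive (median 0.28), with sums of 969.8 to 1216 and 1222 to 1477 FPKM. The sums of the mural and macrophage lists did not overlap either. The part of these cells, fibroblasts included, in the collagen values was not tested.

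The enzymes and partners of collagen gave few calls. Of 20 genes that hydroxylate, fold and export collagen chains, 0 passed. Of the 20, 15 were negative (median −0.12, beside 0.03 over all genes), as were 5416 of all 12512 genes tested. Their sums were 1394 to 1499 FPKM in PBS_D3 and 1160 to 1367 FPKM in aNMP-2a_D3, without overlap. Serpinh1, the collagen chaperone, had −0.44 (limma adjusted p = 0.110) and P4ha2, a prolyl hydroxylase subunit, −0.36 (adjusted p = 0.0567). Of 11 tested genes of procollagen processing and cross-linking, Pcolce2, an enhancer of C-propeptide cleavage, rose (0.59, adjusted p = 0.0340), while the cross-linking oxidase Loxl2 had −0.61 (adjusted p = 0.0623). Of 14 tested fibril-associated proteoglycans and glycoproteins, Dcn, the collagen-binding proteoglycan decorin, rose (0.65, adjusted p = 0.0396). Of 8 collagen receptors and 12 basement membrane partners tested, 0 passed.

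The day 3 calls have limits. With all 18 libraries in 1 fit, whose spread estimate takes in the uneven later groups, 0 collagen genes were called (Col5a3 adjusted p = 0.725, Col12a1 adjusted p = 0.895). Col12a1 lost its call without any 1 of the 3 PBS_D3 libraries (adjusted p = 0.145, 0.105 and 0.163) and without replicate 1 or 2 of aNMP-2a_D3 (0.0680 and 0.0980), and without replicate 3 of aNMP-2a_D3 5 genes were called lower, Col12a1, Col18a1, Col5a2, Col5a3 and Col6a3. Without replicate 1 of PBS_D3, Col6a6 was called higher.

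**Figure D4:**
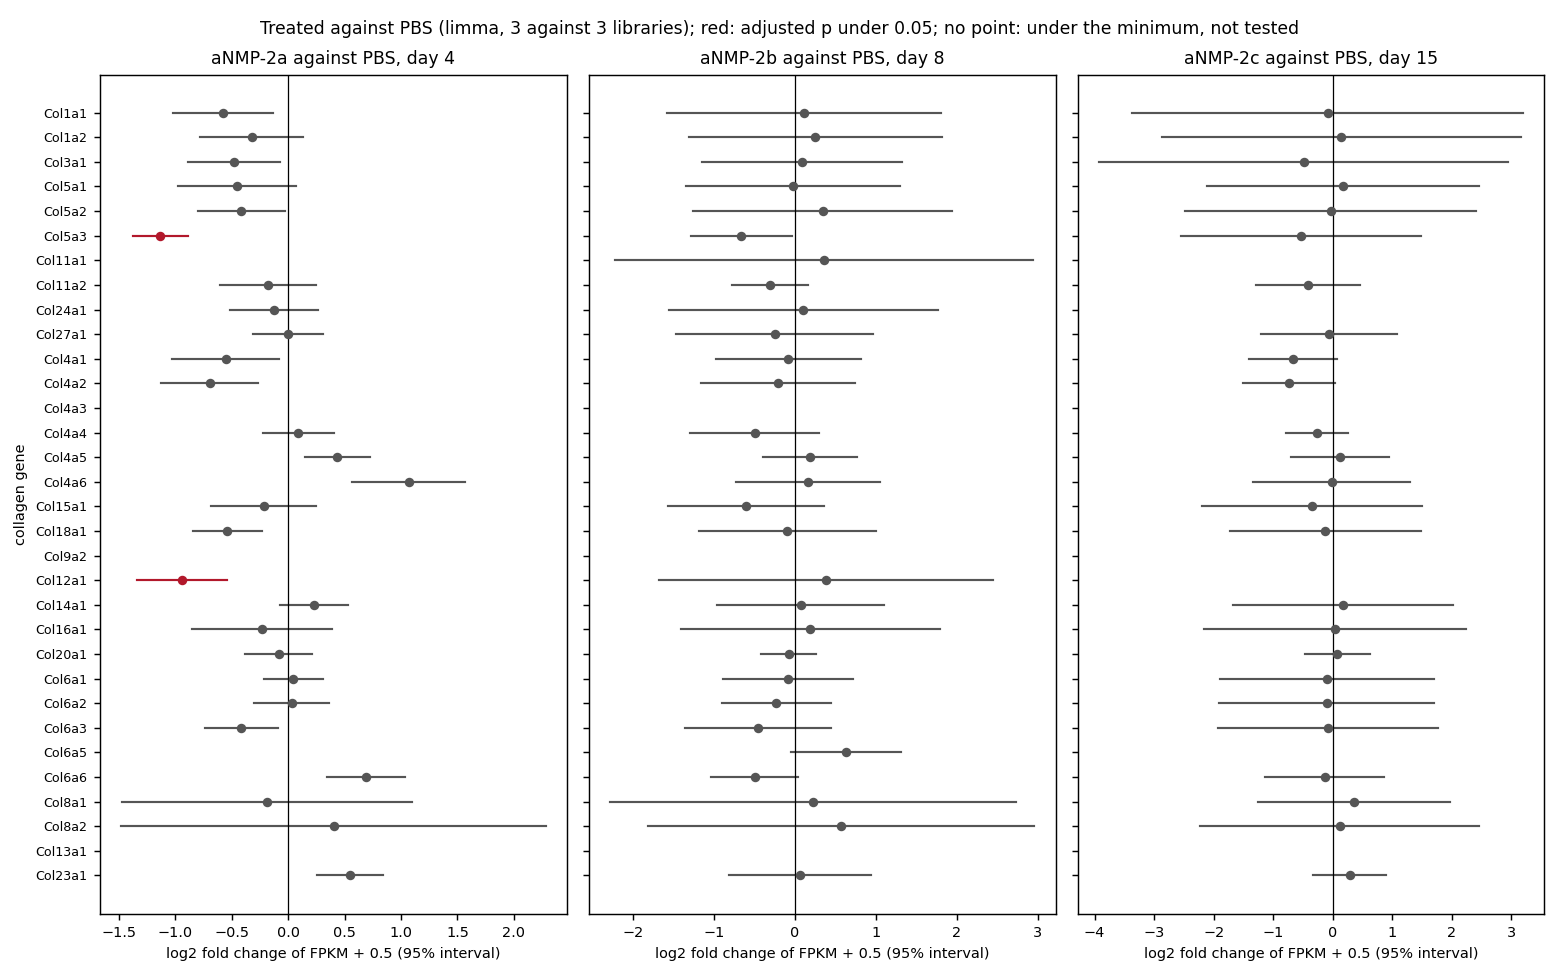
Log2 fold change of FPKM + 0.5 for each collagen gene in the 3 comparisons of an agent with PBS, with 95% intervals (3 against 3 libraries); genes under the filter have no point. Red marks the 2 calls, Col5a3 at −1.13 and Col12a1 at −0.94 on day 4, and the intervals of the fibrillar genes are several times wider on day 15 than on day 4.

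Adding aNMP-2b on day 7, measured on day 8 against PBS in hearts that had all received aNMP-2a, gave no collagen call. Of 29 genes tested, limma called 0 in either direction, against 0.00787% of all genes, and 1 had an unadjusted p under 0.05, against 7.78% of all genes. That gene was Col5a3, from 32.1 ± 11.5 to 19.5 ± 3.47 FPKM (log2 fold change −0.66, SE 0.26, adjusted p = 0.623), and at −0.39 without replicate 1 of aNMP-2a+PBS_D7 and −0.80 without replicate 2 of aNMP-2a+2b_D7. Next by p were Col6a6 (−0.50, adjusted p = 0.673) and Col6a5 (0.63, adjusted p = 0.676). Groups did not overlap for 0 of the 29, against 12.3% of all genes. The median log2 fold change was 0.07, beside −0.00437 over all genes.

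The type I and III values of day 8 hung on single libraries. Col1a1 had a log2 fold change of 0.12 (95% interval −1.58 to 1.81, adjusted p = 0.980) and Col3a1 of 0.09 (−1.15 to 1.32, adjusted p = 0.980). Without replicate 1 of aNMP-2a+PBS_D7 they were at 0.94 and 0.64, and without replicate 2 of aNMP-2a+2b_D7 at −0.16 and −0.22. Marker sums were uneven as well: the 10 mesothelial markers were at 53.9 to 154 FPKM in aNMP-2a+PBS_D7 and 221 to 243 FPKM in group aNMP-2a+2b_D7. In the same groups the 8 adipocyte markers were at 2014 to 2294 and 2971 to 4083 FPKM, with Lep under 1 FPKM in all libraries. Adipoq alone was at 8.15 to 26.8 and 70.7 to 108 FPKM. The adipocyte sum was 1361 to 1860 FPKM in PBS_D3, where Adipoq was at 0.07 FPKM or less, so the sum does not follow Adipoq alone. The atrial markers were at 355 to 6919 and 809 to 9417 FPKM. Of all 16 gene lists, 0 genes passed on day 8, and the part of these tissues in the collagen values was not tested.

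Adding aNMP-2c on day 14, measured on day 15, gave no call either. Of 25 collagen genes tested, limma called 0, as it did of all genes (0%), and 0 had an unadjusted p under 0.05, against 8.55% of all genes. Nearest were both chains of the main type IV collagen, Col4a2 from 124 ± 15.3 to 79.1 ± 35.4 FPKM (log2 fold change −0.73, SE 0.32, adjusted p = 0.603) and Col4a1 from 177 ± 11.0 to 118 ± 49.6 FPKM (−0.66, SE 0.31, adjusted p = 0.631), followed by Col4a4 (−0.26, adjusted p = 0.820). Without replicate 1 of aNMP-2a+2b+2c_D14, Col4a2 was at −1.06 and Col4a1 at −0.97, and without replicate 1 of aNMP-2a+2b+PBS_D14 at −0.66 and −0.62. Of the 10 endothelial markers 9 were negative (median −0.28), with sums of 701 to 763 FPKM with PBS and 576 to 668 FPKM with aNMP-2c, without overlap. Of the 12 basement membrane partners 11 were negative (median −0.20), and all 8 macrophage markers were positive (median 0.90). Groups overlapped for all 25, where 15.4% of all genes did not overlap. Not tested were Col11a1, Col24a1, Col4a3, Col9a2, Col12a1, Col6a5 and Col13a1.

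The fibrillar values of day 15 had intervals that allow large differences either way. Col1a1 had a log2 fold change of −0.08 (95% interval −3.37 to 3.20, adjusted p = 0.998) and Col3a1 of −0.49 (−3.93 to 2.95, adjusted p = 0.965). Without replicate 1 of aNMP-2a+2b+2c_D14, the library with 985 FPKM of Col1a1, they were at −1.63 and −2.06, and without replicate 1 of aNMP-2a+2b+PBS_D14 at 0.61 and 0.15. That aNMP-2a+2b+2c_D14 library also had 296 FPKM of mesothelial markers, against 14.1 and 9.65 FPKM in the other 2, and 79.7 FPKM of the fat cell gene Adipoq, against 5.08 and 0.75 FPKM. Its 8 myofibroblast markers summed to 744 FPKM, against 134 and 123 FPKM. Of all lists, 0 genes passed on day 15, and the part of these cells in the collagen values was not tested.

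Whether the effect of the agents differed between days was tested in 1 fit of the 6 groups. Limma called 0 of 32 collagen genes, and 0 genes of any kind, in each of the 3 differences. At an unadjusted p under 0.05 there was 1 collagen gene between days 7 and 3 (Col6a6, −1.19, adjusted p = 0.980), against 4.8% of all genes. There were 0 between days 14 and 7, against 2.63%, and 0 between days 14 and 3, against 4.89%. The day 7 effect minus the day 3 effect was 0.47 for Col5a3 (95% interval −1.29 to 2.24) and 1.32 for Col12a1 (−1.33 to 3.97), so their fall on day 3 was not shown to differ from the later days.

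Across time, hearts given aNMP-2a were compared between day 4 and day 8; the day 4 group is also the treated group of the day 3 comparison. Of 27 genes tested, limma called 0, against 0.0397% of all genes, and 4 had an unadjusted p under 0.05, against 9.42%. Col5a3 went from 15.6 ± 1.74 to 32.1 ± 11.5 FPKM (log2 fold change 0.96, SE 0.24, adjusted p = 0.283), and without replicate 1 of aNMP-2a+PBS_D7 it was called higher (0.69, adjusted p = 0.0376). Col4a2 had 0.85 (adjusted p = 0.315), Col4a1 0.69 (adjusted p = 0.453) and Col6a6 −0.41 (adjusted p = 0.521). Without replicate 1 of aNMP-2a+PBS_D7, Col4a2 was at 0.69 and Col4a1 at 0.50. Of the 10 endothelial markers 8 were positive and of the 10 mural markers 9, with sums of 549.6 to 653 and 707 to 764 FPKM (endothelial) and 379.6 to 394 and 436 to 476 FPKM (mural) on days 4 and 8, without overlap. All 8 macrophage markers were negative (median −0.83), 0 markers of any list passed, and the part of these cells in the collagen values was not tested. Groups did not overlap for Col5a3, Col4a2 and Col20a1, higher on day 8 (6.98% of all genes), and Col6a6, lower (7.32% of all genes). Col1a1 and Col3a1 were at −0.06 and −0.15, and at −0.88 and −0.70 without replicate 1 of aNMP-2a+PBS_D7.

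Hearts given aNMP-2a and aNMP-2b were compared between day 8 and day 15, the groups aNMP-2a+2b_D7 and aNMP-2a+2b+PBS_D14, each of which also serves in a comparison with another agent. Of 28 collagen genes tested, limma called 0, against 0.0159% of all genes. In 25 of the 28 the value was negative, with a median log2 fold change of −0.75 beside −0.07 over all genes, and 9 had an unadjusted p under 0.05, all lower, against 13.2% lower and 18.6% in either direction of all genes. The largest values, with all libraries, were those of Col12a1 (4.30 ± 2.78 to 0.763 ± 0.716 FPKM, −1.84, adjusted p = 0.212), Col1a1 (459 ± 172 to 157 ± 142 FPKM, −1.84, adjusted p = 0.216) and Col1a2 (−1.80, adjusted p = 0.214). Col3a1 had −1.63 (adjusted p = 0.223) and Col5a2, the single gene whose groups did not overlap, −1.61 (adjusted p = 0.225), where 16.9% of all genes were lower without overlap. Without replicate 1 of aNMP-2a+2b+PBS_D14, Col1a1 was at −2.54, Col1a2 at −2.44, Col12a1 at −2.28 and Col3a1 at −2.27. Without replicate 2 of aNMP-2a+2b_D7 they were at −1.56, −1.45, −1.43 and −1.33, with none called in either case.

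By class, the fibrillar genes had a median of −1.29 (9 tested), the FACITs −1.25 (4 tested), the other collagens −0.75 (8 tested) and the basement membrane genes −0.35 (7 tested). Col4a1 stood at −0.16 (95% interval −0.95 to 0.64, adjusted p = 0.823), and at 0.24 without replicate 2 of aNMP-2a+2b_D7. Of the collagen partners 0 passed, but all 14 tested proteoglycans and glycoproteins had a negative value (median −1.07), as did all 11 genes of processing and cross-linking (median −0.79, with Lox at −1.99, adjusted p = 0.251) and all 8 receptors (median −0.50). Of 20 genes of hydroxylation and folding, 17 were negative (median −0.32). The 10 cardiomyocyte markers were all positive (median 0.67), with sums of 33269 to 51729 FPKM on day 8 and 60757 to 75444 FPKM on day 15, and the 8 macrophage markers all negative (median −1.13). The myofibroblast markers summed to 437, 1561 and 234 FPKM on day 8 and 380.0, 187 and 135 FPKM on day 15. The part of these cells in the collagen values was not tested.

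The libraries of days 8 and 15 that were high in collagen were high in scar markers. Postn, a matricellular protein of healing scars, was at 792 FPKM in replicate 1 of aNMP-2a+PBS_D7 against 138 and 156 FPKM, at 945 FPKM in replicate 2 of aNMP-2a+2b_D7 against 208 and 136 FPKM, at 123 FPKM in replicate 1 of aNMP-2a+2b+PBS_D14 against 38.2 and 32.8 FPKM, and at 315 FPKM in replicate 1 of aNMP-2a+2b+2c_D14 against 27.6 and 34.2 FPKM. Cthrc1, a secreted protein of activated cardiac fibroblasts, was at 106, 169, 19.4 and 85.6 FPKM in those 4 libraries and at 0.80 to 37.5 FPKM in the other 8 of days 8 and 15. On day 4, Postn was at 750.5 FPKM in replicate 3 of aNMP-2a_D3 and at 176 to 389 FPKM in the other 5 libraries. Pdgfra, a gene of fibroblasts in general, was at 12.7 to 26.9 FPKM in all 18 and was highest in the collagen-high library in 3 of the 4 groups of days 8 and 15, at 26.9, 21.1 and 24.8 FPKM, the exception being aNMP-2a+2b+PBS_D14. The sum of the 10 fibroblast markers, Pdgfra among them, was highest in the collagen-high library in none of these groups. For replicates 1 to 3 that sum was 1775, 3030 and 2183 FPKM in aNMP-2a+PBS_D7. In group aNMP-2a+2b_D7 it was 1817, 1789 and 1599 FPKM. It was 1763, 2161 and 2175 FPKM in group aNMP-2a+2b+PBS_D14 and 2131, 2280 and 1880 FPKM in group aNMP-2a+2b+2c_D14. Within aNMP-2a+2b+2c_D14 the SD of log2 Col3a1 was 2.91, above that of 99.8% of genes, and that of Col4a1 was 0.63, above that of 89.5% of genes. Within aNMP-2a+2b+PBS_D14 the SD was 1.12 for Col3a1 (above 98.8% of genes) and 0.09 for Col4a1 (above 25.3% of genes). Within aNMP-2a+PBS_D7 it was 0.955 for Col3a1 and 0.35 for Col4a1. Col4a1 had the larger SD within aNMP-2a+2b_D7 (0.71, against 0.54 for Col3a1), aNMP-2a_D3 (0.39 against 0.33) and, narrowly, PBS_D3 (0.21 against 0.20). The part of the scar content of a sample in the collagen values was not tested.

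The balance between chains of one collagen was compared within each library, as ratios of FPKM and without a test. Col4a1 to Col4a2 was at 1.36 to 1.73 in all 18 libraries, and Col6a1 to Col6a2 at 0.913 to 1.14. Type I chains are built into the common molecule with more alpha-1 than alpha-2. Col1a1 to Col1a2 was at 0.960 to 1.03 in PBS_D3 and at 0.820 to 0.848 in aNMP-2a_D3. On day 8 it was at 0.803 to 0.996 with PBS and 0.714 to 0.851 with aNMP-2b. On day 15 it was at 0.723 to 0.826 with PBS and 0.542 to 0.767 with aNMP-2c, so the groups of each later day overlapped. Col6a3 to Col6a1 was at 0.268 to 0.280 in PBS_D3 and 0.180 to 0.211 in aNMP-2a_D3, and Col5a3 to Col5a1 at 0.389 to 0.503 and 0.209 to 0.321, with no overlap between the day 4 groups. Col4a1 to Col4a2 (1.41 to 1.48 in PBS_D3, 1.49 to 1.69 in aNMP-2a_D3) and Col3a1 to Col1a1 (2.23 to 2.44 and 2.46 to 2.54) did not overlap either, with narrow gaps. This made 5 of the 9 ratios computed. The 9 were chosen pairs, several share a gene, and no share over other gene pairs was computed, so the count is not a result about collagen. Col6a3 to Col6a1, Col5a3 to Col5a1 and Col1a1 to Col4a1 were not among the pairs first planned. Col6a3 and Col5a3 were themselves lower without overlap on day 4, so their ratios partly repeat those values. Col3a1 to Col1a1 was at 1.33 to 3.11, with both ends on days 8 and 15. Col1a1 to Col4a1, a ratio across classes, lay between 0.393 and 5.82. The type VIII pair Col8a1 to Col8a2 lay between 1.92 and 21.7, so chains of one collagen did not always keep a narrow ratio.

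**Figure D5:**
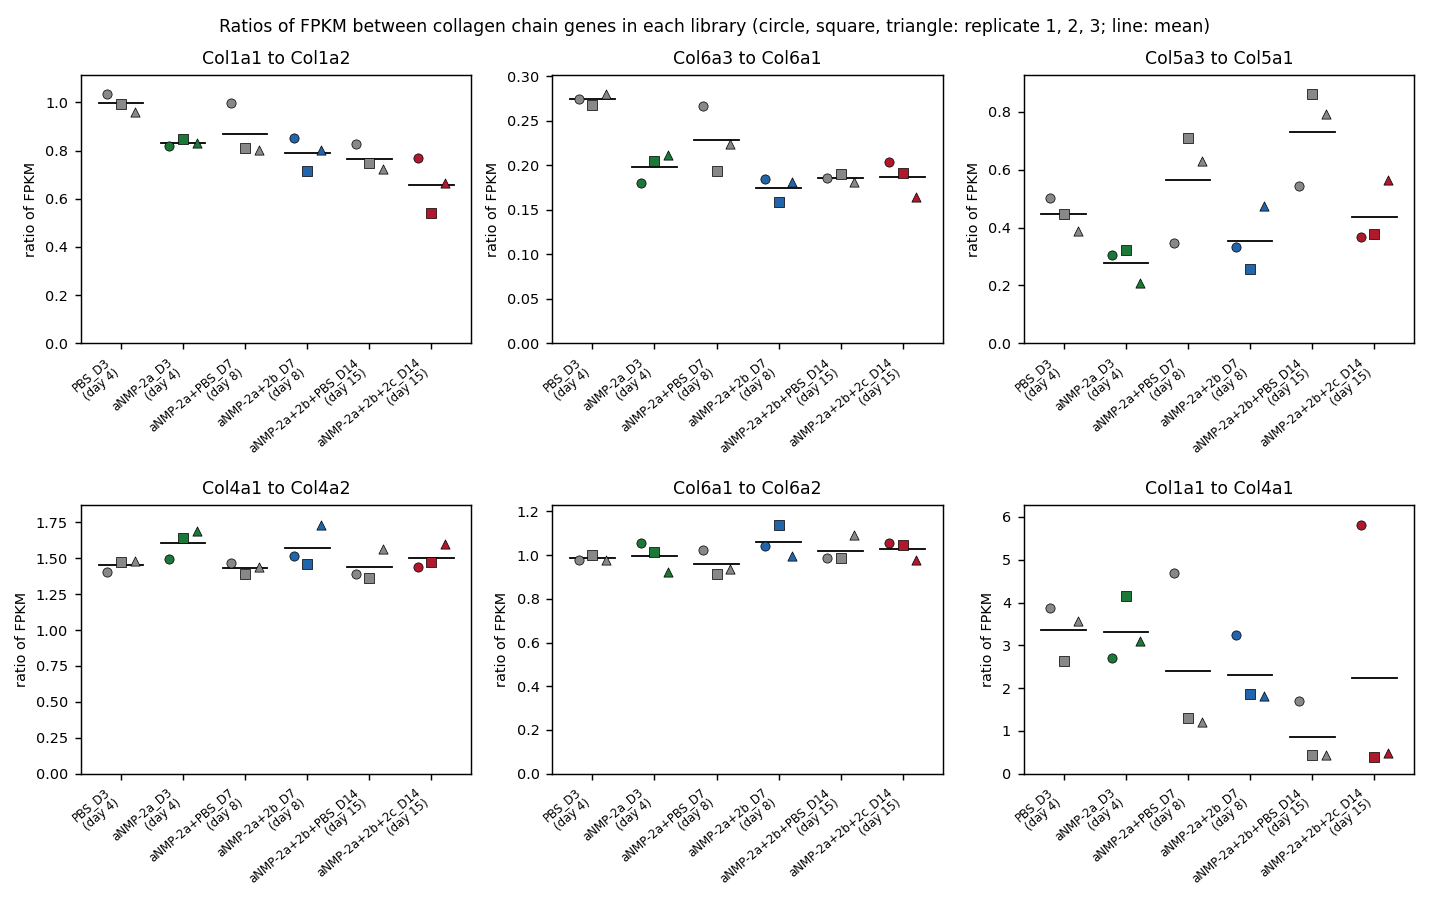
Ratio of FPKM between chain genes in each library, with symbols for replicates 1 to 3 and lines for group means. Col4a1 to Col4a2 and Col6a1 to Col6a2 keep within 1.36 to 1.73 and 0.913 to 1.14, and Col1a1 to Col1a2 is at 0.960 to 1.03 in PBS_D3 and at 0.820 to 0.848 in aNMP-2a_D3.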

How the data were processed

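Messenger RNA was measured in 18 heart libraries, 6 groups of 3. The deposited FPKM values, 1 per gene and library, were made by the authors; the unit was read from the values, and no counts were used, so depth is unknown. The submitters' processing notes name RSEM 1.2.8, Bowtie2 2.2.5, HISAT2 2.1.0 and the build GRCm38.p6; their roles, filters and strandedness are not given in the sources used here.

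Each comparison used log2(FPKM + 0.5), genes with at least 1 FPKM in 3 or more of its 6 libraries, limma 3.58.1 with trended and robust empirical Bayes (R 4.3.3) and Benjamini-Hochberg adjustment over all genes at 0.05. Differences between effects used 1 fit of 18 libraries. The code was tested on simulated data. Figures used matplotlib 3.10.9 and tables pandas 2.3.3. Named genes are 15 anchor genes of the classes, up to 10 called members in each direction or, with fewer than 3 called, the 3 with the smallest p, and up to 3 called genes of a list; other members named with values were chosen after these were seen. Members, classes and the 16 gene lists were chosen with earlier results of these data known. Alternatives changed the pseudocount, filter, scaling, fit, replicate block and libraries used. Protein sequence features were not analysed here.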

Additional observations from a re-analysis of the deposited data

How the results depend on the processing

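The 2 collagen calls of day 3 became 1 with no filter on low values and 1 with a minimum of 5 FPKM, 0 with all 18 libraries in 1 fit and 5 without the libraries rich in Myl7 (which leaves 1 aNMP-2a_D3 library, assumed to vary like the others, so this count supports nothing), and ranged from 1 to 5 when each library was left out in turn. For day 8 against day 4 leaving out libraries gave 0 to 1 calls. The replicate block gave 2 calls on day 3 and 0 in the other 4 comparisons. Deviations of same-numbered libraries correlated between −0.40 and 0.37, with a value under 0.1 in each comparison. On day 3, 4 of 6 libraries correlated best with the library of their own number, and 0 to 2 of 6 did in the other comparisons. On these values the numbers were not taken to pair the samples. Without the libraries rich in Myl7, 1 arm of each fitted comparison is a single library. There, log2 fold changes turned sign for Col6a1 on day 3 (−0.14), and for Col1a1 (−0.88), Col3a1 (−0.58) and Col12a1 (−1.33) on day 7. Between days 4 and 8 they turned sign for Col1a1 (0.42) and Col3a1 (0.14). The setting without these libraries could not be fitted for day 15 against day 8. Leaving out single libraries gave ranges that cross 0. On day 3 this was Col6a1 (−0.073 to 0.14). On day 7 these were Col4a1 (−0.48 to 0.19), Col6a1 (−0.35 to 0.21), Col1a1 (−0.33 to 0.94), Col3a1 (−0.22 to 0.64) and Col12a1 (−0.14 to 1.27). On day 14 these were Col1a1 (−1.63 to 0.94), Col3a1 (−2.06 to 0.82), Col6a1 (−0.94 to 0.50) and Col5a3 (−1.49 to 0.21). Between days 4 and 8 these were Col1a1 (−0.88 to 0.39), Col3a1 (−0.70 to 0.15), Col6a1 (−0.10 to 0.36) and Col12a1 (−0.36 to 1.05), and between days 8 and 15 Col4a1 (−0.42 to 0.24) and Col5a3 (−0.46 to 0.077). The causes were not tested. Depth is unknown, so no counting error can be given for genes near 1 FPKM.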

Other observations

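Of the 12 collagen symbols under the minimum, 8 reached 1 FPKM in 0 libraries. Col28a1 reached 2.64 FPKM at its highest, Col7a1 1.65 FPKM and Col26a1 1.55 FPKM. Col2a1, the main collagen of cartilage, was at 0.72 FPKM or less in all 18 libraries, and Col10a1, of hypertrophic cartilage, at 0.11 FPKM or less.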
